A study of Homo sapiens with 2 samples.

Results

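FAT1, FAT2, FAT3 and FAT4, DCHS1 and DCHS2, FJX1, and CELSR1, CELSR2 and CELSR3 were examined in RNA sequencing of CWR22rv1 cells, a human prostate cancer cell line. They are 10 of the 19607 genes in the deposited expression table, and the list was chosen by gene symbol with the large rise of FAT1 in these same libraries already known, so that rise and the other differences between the libraries are given here as description, without a test. Akt1/2 DKO cells came from CWR22rv1 cells transfected together with Cas9 plasmids against AKT1 and AKT2 and a plasmid for puromycin selection, from which single-cell clones were isolated, and the control cells are labelled wild type. There was 1 library of each, and which clone gave the Akt1/2 DKO library is not stated in the sources used here. The knockout, the isolation of a clone and the library therefore cannot be told apart in any difference below, and no difference has a replicate check.

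FAT and Dachsous proteins are giant cadherins, built from long rows of extracellular cadherin repeats, that bind each other across the contact between neighbouring cells. In flies, Fat is the receptor and Dachsous its ligand, the Golgi kinase Four-jointed phosphorylates their cadherin repeats and so tunes their binding, and Fat signals to planar cell polarity and to the Hippo pathway, which restrains growth. In mammals the FAT4 and DCHS1 pair is closest to the fly pair, FJX1 is the homologue of Four-jointed, and FAT1 binds regulators of actin and takes part in cell adhesion and migration. The CELSR proteins, homologues of the fly cadherin Flamingo, pass through the membrane several times, join like to like between cells, and belong to the core planar polarity machinery.

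The RefSeq promoter table (GRCh38.p14) gave sequences for 6 of the 10 genes, CELSR2, CELSR3, DCHS2, FAT1, FAT2 and FJX1. FAT1 is shown because it went from a near absence of reads to one of the more abundant of these genes. It (ENSG00000083857) lies on chromosome 4 from 186587783 to 186726722 on the minus strand in GENCODE release 29 (GRCh38), and the table gives it 2 start sites that are 2840 bases apart. The 250 bases before each start are printed 5′ to 3′ on the minus strand with CpG dinucleotides, the sites of DNA methylation, in capitals. The upstream window is chr4:186726697-186726946 and the downstream one, before the start of the full-length transcript, is chr4:186723857-186724106.
FAT1 upstream start: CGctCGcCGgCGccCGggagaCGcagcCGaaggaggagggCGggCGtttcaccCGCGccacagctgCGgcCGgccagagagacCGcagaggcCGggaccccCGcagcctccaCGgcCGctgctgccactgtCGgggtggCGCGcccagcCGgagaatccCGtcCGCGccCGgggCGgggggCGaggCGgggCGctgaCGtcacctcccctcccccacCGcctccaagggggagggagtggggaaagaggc
FAT1 downstream start: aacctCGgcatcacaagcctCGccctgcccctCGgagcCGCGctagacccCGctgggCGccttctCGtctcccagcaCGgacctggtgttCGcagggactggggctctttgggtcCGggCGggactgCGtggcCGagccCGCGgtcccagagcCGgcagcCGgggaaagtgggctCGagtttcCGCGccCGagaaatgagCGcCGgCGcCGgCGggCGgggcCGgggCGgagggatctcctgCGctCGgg
Each FAT1 window held 32 CpG, against a median of 11 in 35116 promoter windows of the same length, and 9.52% of these windows held as many or more. The window of CELSR3 held 25 CpG, that of CELSR2 23, that of DCHS2 23 and that of FJX1 22, and FAT2 had the fewest with 4. The FAT2 window precedes a start at 151591331, outside the GENCODE span of FAT2. That of CELSR2 precedes a start at 109249539, also outside the span of its gene, which begins at 109250019. That of DCHS2 precedes a start at 154491799, inside the span of DCHS2. These counts hold for the RefSeq starts only. DNA methylation was not measured in these samples. On both strands, 0 of the 7 windows of the 6 genes held the letters CATTCC of TEAD factors, TGTTTAC of forkhead factors such as FOXO or CACCTG of the E-box that SNAI factors bind. Of all windows, 11.9%, 2.98% and 17.5% held them in that order.

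The libraries held 9970820 estimated reads (control) and 10718650 (Akt1/2 DKO). AKT1, one of the targeted genes, had 2645 reads in control and 591 in Akt1/2 DKO, and AKT2 had 2362 and 667, so both were lower in the library labelled as the knockout. Of the prostate luminal markers, HOXB13 had 2363 reads in control and 865 in Akt1/2 DKO, FOXA1 2511 and 3289, and KLK3 184 and 29. These were present in both libraries, with HOXB13 and KLK3 lower in Akt1/2 DKO. The other markers of that list are not given, so no direction is read for the list. FPKM is the authors' level of a gene per length of transcript and size of library. EPCAM, CDH1, KRT8 and KRT18, epithelial markers, had summed FPKM of 655 and 1071. CDH1, the classical cadherin of epithelia, was lower, with 5349 and 3343 reads (log2 fold change -0.83), while the other markers of that list were higher. Of the 4 basal markers, TP63 and KRT5 were at 0 reads in both libraries, and the list held 15 reads in control and 0 in Akt1/2 DKO. The 7 fibroblast markers held 143 and 157 reads, a sum in which some genes were lower in Akt1/2 DKO and others higher. The 4 endothelial markers held 2 and 2 reads, the 4 leukocyte markers 51 and 69, nearly all of them CD68, and the 5 neuroendocrine markers 1418 and 1244. Within the last list CHGA had 340 and 2 reads, CHGB 326 and 244 and SYP 752 and 998. The part of other cells in the values below was not tested beyond these levels.

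FAT1 was nearly silent in control cells, with 3 reads, and had 2378 reads in Akt1/2 DKO cells. The ratio of normalized reads was 715 (95% interval 244 to 3469), a log2 fold change of 9.48. Normalization was for library size by the TMM method, and each interval is the exact one given the sum of reads and covers counting error only. Per length, FAT1 stood at an FPKM of 0.02 in control and 20.5 in Akt1/2 DKO (Poisson interval of the reads 19.7 to 21.3). Of the 13318 genes whose reads in both libraries summed to 10 or more, 0.984% had a lower FPKM than FAT1 in control, and 66.8% did in Akt1/2 DKO. FAT1 took 0.0518% of the summed FPKM of the 10 genes in control and 36.3% in Akt1/2 DKO. In RNA of bulk cells, more transcript per cell and more cells with the transcript cannot be told apart.

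The FPKM of FAT1 rests on a shorter length than its longest transcript. Reads and FPKM in Akt1/2 DKO imply a mean length of 10822 bases, which is 73.2% of the 14786 bases of its longest coding transcript, one with 27 exons, and GENCODE lists 12 FAT1 transcripts. For CELSR1, CELSR2 and CELSR3 the implied length in the same library was 100.6% to 100.7% of the longest coding transcript. Among 489 genes with at least 100 reads and a longest coding transcript of at least 10 kb, the median was 62.6%, and 59.9% lay at or under the share of FAT1. Spread over its full length, FAT1 would stand at 15.0 FPKM, still between CELSR3 (23.9) and CELSR1 (7.64) computed in the same way.

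With only 2 libraries, likeness to FAT1 comes down to the size of the change. After 1 read was added to each count, the log2 fold change of FAT1 was 9.07, and the nearest among the 10950 other genes with at least 100 reads were ZNF648 (8.89), KRT80 (9.25) and PLXDC2 (8.32). No such gene lay within 0.1 of FAT1.

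**Figure D1:**
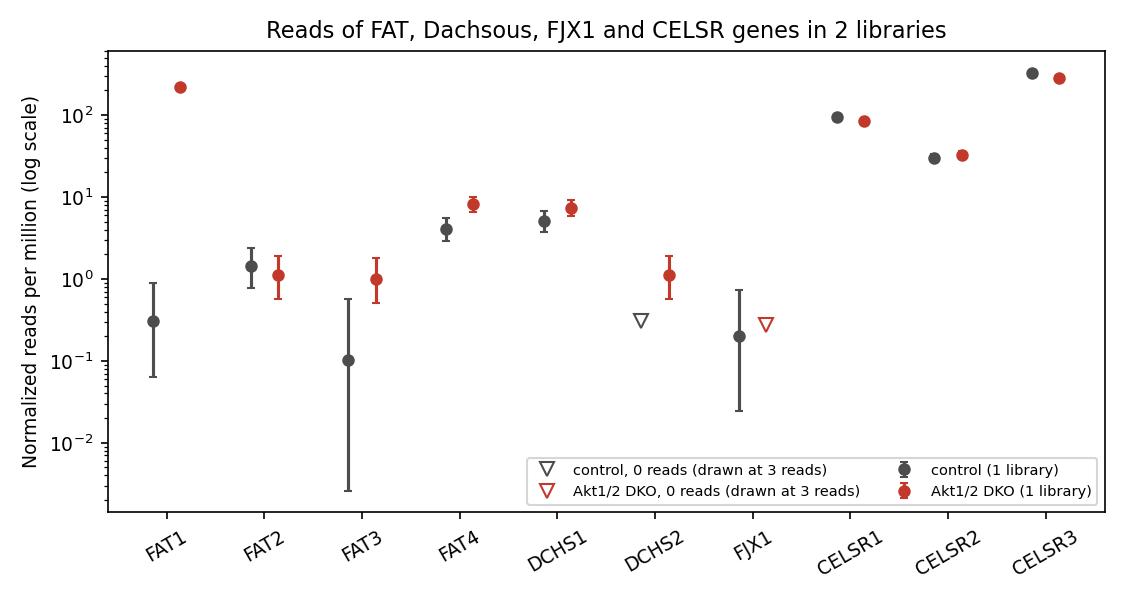
TMM-normalized reads scaled to library size (CPM, log scale) of each of the 10 genes in the control library (grey) and the Akt1/2 DKO library (red). Bars are 95% Poisson intervals and open triangles are libraries with 0 reads, drawn at 3 reads. FAT1 moves from 0.306 to 218 CPM while the 3 CELSR genes stay in place.

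The other FAT cadherins were low in both libraries. FAT4 (ENSG00000196159), the receptor of DCHS1, had 40 reads in control and 89 in Akt1/2 DKO, 2.01-fold higher (95% interval 1.37 to 2.99), and stood at an FPKM of 0.27 and 0.51. FAT3 (ENSG00000165323), best known from neurons of the retina, had 1 and 11 reads, a ratio of 9.92 with an interval from 1.44 to 427, and 3.31 when the control read is set to the floor of 3 reads used for calls. FAT2 (ENSG00000086570), known from migrating keratinocytes, had 14 and 12 reads, a ratio of 0.773 (interval 0.327 to 1.80), and no difference could be seen with so few reads. FAT1 was thus the FAT gene that changed most in these libraries, and the level of FAT4 remained far below it in Akt1/2 DKO.

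The Dachsous ligands were also low. DCHS1 (ENSG00000166341) had 50 reads in control and 81 in Akt1/2 DKO, 1.46-fold higher (interval 1.01 to 2.12), just under the 1.5-fold used here to call a gene changed. When the libraries were scaled by their total counts the ratio was 1.51, and the authors' FPKM of 0.46 and 0.70 gave 1.52, so its call turns on the scaling. DCHS2 (ENSG00000197410), a paralogue of DCHS1, had 0 and 12 reads. Against a floor of 3 reads in the control library, where 3 reads are what a count of 0 still allows, its ratio was 3.61. The lower limit of the counting interval was 2.51, and there is no upper limit. Together the 2 Dachsous genes had 50 and 93 reads, a ratio of 1.68 (interval 1.18 to 2.42). DCHS2 has reads in Akt1/2 DKO only and raises this ratio above that of DCHS1, so nothing more is read from the sum. FJX1 (ENSG00000179431) had 2 reads in control and 0 in Akt1/2 DKO, both at or under the floor, so no ratio is given. The receptor FAT4 and its ligand DCHS1 were thus both read in each library, at levels far below the CELSR genes, while FJX1 stayed within the floor.

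The CELSR cadherins carried most of the reads of the group in control and differed little between the libraries. CELSR3 (ENSG00000008300), which guides axon tracts in the brain, had 3208 reads in control and 3068 in Akt1/2 DKO, a log2 fold change of -0.21 (interval -0.29 to -0.14). CELSR1 (ENSG00000075275), which orients cells in skin and neural tube, had 937 and 933 reads, a log2 fold change of -0.16 (interval -0.29 to -0.02). CELSR2 (ENSG00000143126), which acts with CELSR3 in the cilia of ependymal cells, had 292 and 359 reads, a log2 fold change of 0.15 (interval -0.08 to 0.38). None of the 3 reached 1.5-fold. For counting error alone, their intervals reach 1.30-fold higher (CELSR2) and 1.22-fold lower (CELSR1 and CELSR3). They do not cover the spread between clones or libraries. The 3 genes together had 4437 and 4360 reads, a ratio of 0.886 (interval 0.850 to 0.924).

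Of the 9 genes with a sum of 10 reads or more, FAT1, FAT3, FAT4 and DCHS2 were called higher and 0 were called lower. Over all 13318 genes with that many reads, 30.9% were called in either direction, 15.9% higher and 15.0% lower in Akt1/2 DKO. FAT1, FAT3 and DCHS2 had at most 3 reads in control and reached 10 reads only through the Akt1/2 DKO library, so they had to differ, and nothing is read from the count. With a sum of 100 reads or more, 6 genes remained and FAT1 and FAT4 were called higher. Of the 10956 genes with that many reads, 23.2% were called, 11.3% higher and 11.9% lower.

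**Figure D2:**
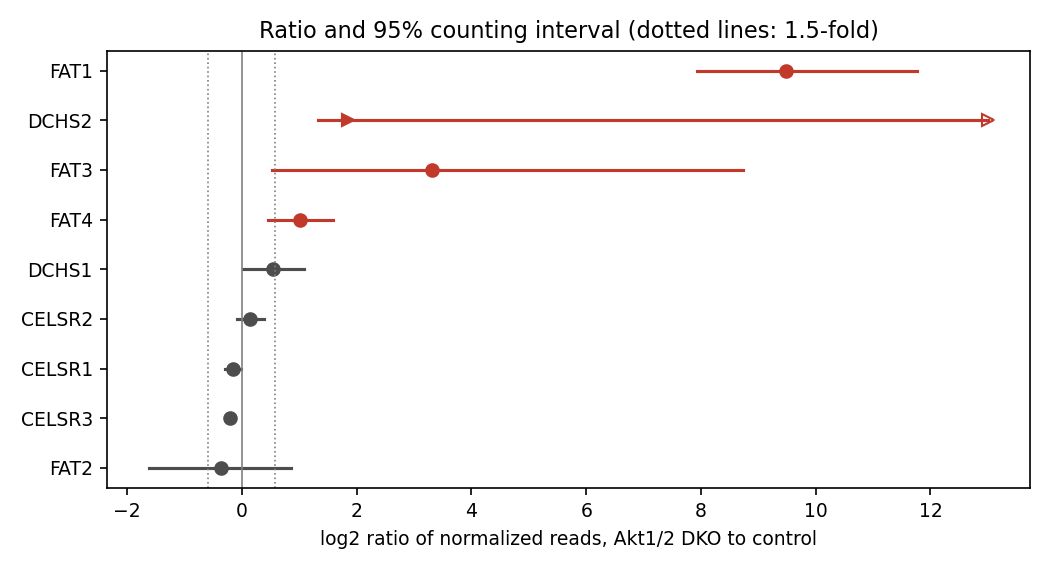
Log2 ratio of normalized reads, Akt1/2 DKO to control, for the 9 genes with at least 10 reads, with exact 95% counting intervals (red, called higher; grey, not called). Circles are ratios of the reads as counted, and the filled triangle of DCHS2 is its ratio against 3 control reads. Its interval has no upper limit. The interval of FAT1 starts at 7.93, while those of CELSR1, CELSR2 and CELSR3 lie between the dotted 1.5-fold lines.

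Per length, CELSR3 was the highest of the 10 genes in both libraries, with an FPKM of 26.7 in control and 23.8 in Akt1/2 DKO. In control it was followed by CELSR1 (8.19), CELSR2 (2.76), DCHS1 (0.46) and FAT4 (0.27), and the others stood at 0.10 or less. In Akt1/2 DKO, FAT1 (20.5) took the second place, above CELSR1 (7.59), CELSR2 (3.16), DCHS1 (0.70) and FAT4 (0.51). The counting intervals of neighbours in this order did not overlap from CELSR3 down to DCHS1 in either library. Those of DCHS1 and FAT4 overlapped in both, and so did those of neighbours at 0.11 FPKM or less. The FPKM of the 10 genes summed to 38.6 in control and 56.5 in Akt1/2 DKO, and without FAT1 to 38.6 and 36.0. The ratio of their reads was 1.38 (interval 1.33 to 1.43) with FAT1 and 0.906 (interval 0.869 to 0.944) without it.

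**Figure D3:**
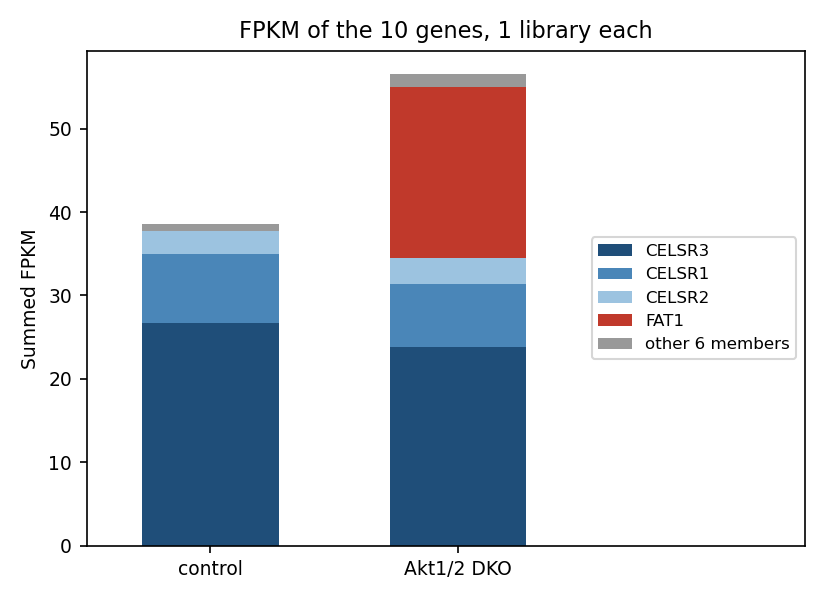
Summed FPKM of the 10 genes in 1 control and 1 Akt1/2 DKO library, stacked by gene from 0, with no error bars because there is 1 library of each. The red FAT1 block of 20.5 FPKM appears in Akt1/2 DKO on top of CELSR blocks of like height in both libraries.

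The tested genes that reach within 1 Mb of either end of each member were set beside it. Positions are those of GENCODE release 29. FAT1, FAT4 and DCHS2 are on chromosome 4, whose 414 genes with at least 50 reads had a median log2 fold change of 0.04. FAT1 had 3 such neighbours. CYP4V2 had 109 and 117 reads and FAM149A 24 and 31, neither of them called, and SORBS2, an adaptor of the actin cytoskeleton, had 1 and 97. Near FAT4 (chromosome 4 from 125316399 to 125492932) the one tested gene, ANKRD50, had 252 and 257 reads. Near DCHS2 (chromosome 4 from 154231742 to 154495570), 5 of 6 tested genes were called higher and 0 lower, with a median log2 fold change of 0.73. Among them PLRG1, a splicing factor, had 521 and 909 reads, MAP9 81 and 319, and LRAT, the enzyme that esterifies retinol, 0 and 28.

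CELSR3 lies on chromosome 3 from 48636469 to 48662915, a chromosome on which 579 of 666 genes with at least 50 reads (86.9%) were lower in Akt1/2 DKO, with a median log2 fold change of -0.53. The medians of the other chromosomes ran from -0.20 (chromosome 8) to 0.12 (chromosome 1). Within 1 Mb of CELSR3, 17 of 43 tested genes were called lower and 0 higher, with a median of -0.46, so its own value of -0.21 was higher than the median of its neighbours. The part of the chromosome in the value of CELSR3 was not tested. Near CELSR1 (chromosome 22 from 46360834 to 46537170) the median of 15 tested genes was -0.02, and near CELSR2 (chromosome 1 from 109250019 to 109275750) that of 29 was 0.01. FAT2 (chromosome 5 from 151504093 to 151568944) had 11 tested neighbours with a median of -0.08. Near FAT3 (chromosome 11 from 92352096 to 92896470) the median of 6 was 0.34, near DCHS1 (chromosome 11 from 6621323 to 6655854) that of 20 was 0.17, and near FJX1 (chromosome 11 from 35618419 to 35620868) that of 10 was 0.27. Antisense genes, small RNA genes or pseudogenes overlap all of the members except FAT1, FJX1 and CELSR2, and whether the counting used the strand is not given in the sources used here.

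The rest of the planar polarity machinery moved in both directions. Of the 23 tested genes of the 28 on the list, 5 were called higher, 5 lower and 13 neither (43.5% called, against 30.9% of all genes tested), with a median log2 fold change of -0.07 against 0.01 over all genes tested. With a sum of 50 reads or more, 18 of the list remained, and 2 were called higher and 3 lower. Over the whole table, 1533 and 1487 of 11754 genes with that many reads were. PTK7, a co-receptor of planar polarity signalling, had 281 and 70 reads, 4.45-fold lower (interval 3.41 to 5.87). FZD3, a Frizzled receptor, had 75 and 317 reads, 3.81-fold higher (interval 2.96 to 4.97) by reads but with an FPKM of only 1.01 and 2.21, and FUZ, a polarity effector needed for cilia, had 30 and 115, 3.46-fold higher (interval 2.30 to 5.35). RYK, a Wnt receptor, had 1182 and 609 reads, and DVL3, a Dishevelled protein that relays Frizzled signals, had 2596 and 1460. RYK, DVL3 and PRICKLE2, 3 of the 5 genes called lower, are on chromosome 3, and without the genes of that chromosome 2 were called lower. DVL1 (1578 and 1973 reads), DVL2 (789 and 836) and VANGL1 (591 and 514) were within 1.5-fold, and VANGL2 had 0 reads in both libraries. ROR1, a receptor for WNT5A, which was named after its value was seen, had 0 and 47 reads. Its ratio against the floor was 14.1 (lower limit of the counting interval 11.0).

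Among proteins that bind FAT or Dachsous cadherins, or are counterparts of their partners in flies, 18 of 20 genes were tested, and 3 were called higher, 3 lower and 12 neither (33.3% called), with a median log2 fold change of 0.09. CTNNB1, β-catenin, which also binds classical cadherins, had 6885 and 4266 reads, 1.79-fold lower (interval 1.72 to 1.86), and lies on chromosome 3. HOMER1, a scaffold protein, had 193 and 137 reads, 1.56-fold lower (interval 1.25 to 1.96). EVL, an actin regulator of the Ena/VASP family, had 143 and 265 reads, 1.67-fold higher (interval 1.36 to 2.06), while its relatives VASP (484 and 517 reads) and ENAH (1058 and 1453) were within 1.5-fold. RERE, a corepressor of the atrophin family, had 719 and 1286 reads, 1.61-fold higher, and ZDHHC14, a palmitoyltransferase, had 68 and 125, 1.66-fold higher. With the authors' FPKM the call of RERE ended (18.9 and 22.7) and MPDZ, a scaffold protein with PDZ domains, was called higher in its place (2.87 and 5.05). HOMER3, a relative of HOMER1, was also called lower by FPKM (9.04 and 5.89), which made 4 genes lower.

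The Hippo pathway passes signals from cell contacts to the kinases STK3, STK4, LATS1 and LATS2, which hold back the coactivators YAP1 and WWTR1 and their TEAD partners. Of 24 genes, 22 were tested, and 4 were called higher, 2 lower and 16 neither (27.3% called), with a median log2 fold change of -0.05. The 4 kinases were within 1.5-fold, LATS1 with 490 and 569 reads and STK4 with 371 and 381 among them. YAP1 had 569 and 712 reads and WWTR1 194 and 184, also within 1.5-fold. Among the regulators and TEAD factors, AMOTL1 had 106 and 36 reads (3.26-fold lower, interval 2.22 to 4.91) and TEAD3 110 and 48 (2.54-fold lower), whereas AMOT had 115 and 217 (1.70-fold higher), AMOTL2 59 and 138 (2.11-fold higher) and TEAD1 336 and 573 (1.54-fold higher). These 3 calls ended with the authors' FPKM, at 2.59 and 3.61 for AMOT, 2.72 and 2.88 for AMOTL2 and 6.78 and 9.40 for TEAD1. CYR61, a target of YAP1, had 28 and 98 reads, 3.16-fold higher (interval 2.06 to 4.99), and CTGF, another target, had 4 and 6. By FPKM 2 genes were called higher, CYR61 (1.22 and 3.96) and TEAD4 (17.1 and 27.7), which had 264 and 421 reads and was not called from them.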

How the data were processed

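RNA of 1 control and 1 Akt1/2 DKO library was sequenced. For each gene the authors deposited estimated counts, which are not normalized, and FPKM. The submitters' processing notes name fastp 0.20.0, TopHat, Cufflinks and edgeR and the build GRCh38.p10. The authors' own comparison tables (fold changes, p-values, ontology counts) were not used, nor was their correlation between the libraries.

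Estimated counts were rounded, genes whose reads summed to 10 or more were kept, and TMM scaling over these genes (edgeR 4.0.16 under R 4.3.3) made the Akt1/2 DKO library 1.11 times the size of the control library. With 1 library per condition no test was made. Intervals (scipy 1.17.1) are 95% exact ones for counting error only, and a library under 3 reads was set to 3 reads for calls, which took 1.5-fold. The steps were tested on simulated data, in which 100% of 200 genes changed 4-fold were called, as were 5.1% of 13123 unchanged genes. The changed genes were drawn from those with at least 100 reads, so the 100% does not cover genes with fewer reads. The simulated reads varied by counting error only, so neither share covers other differences between real libraries.

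The genes named are the 10 members, AKT1 and AKT2, the 3 genes nearest in log2 fold change to the members that rose and fell most (a Y-linked gene tied with those nearest to FAT2 is left out), marker genes, and the largest changes, at most 6 for each of 3 lists, with at least 100 reads. Other genes were named after their values were seen, as neighbours, beside relatives or for few reads in a library. The members and lists were chosen with earlier results of these data known. Positions come from GENCODE release 29, which held 19571 of the 19607 identifiers. Protein sequences were not used here. Alternatives were 3 other scalings, FPKM with 0.01 added, 3 read filters, a 2-fold threshold and a prior count of 1. Some marker genes and a motif are not reported here.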

Additional observations from a re-analysis of the deposited data

How the results depend on the processing

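The log2 fold changes of the members kept to their counting intervals under total count, DESeq2 and upper-quartile scaling, the authors' FPKM and a prior count of 1, with FAT1 between 9.07 and 9.53 and FAT4 between 0.89 and 1.06. The least settled were DCHS2, from 3.60-fold to 12-fold, and FAT3, from 3.30-fold to 5.41-fold. Each of these settings uses a floor of 3 reads, an added 0.01 FPKM or a prior count. All of them lower FAT3, whose ratio of the reads as counted was 9.92. The 12-fold of DCHS2 depends on the 0.01 added to an FPKM of 0 in control. DCHS1 passed 1.5-fold with total count scaling (1.51), upper-quartile scaling (1.52) and FPKM (1.52). With a sum of at least 50 reads, 2 of 6 members were called higher, as were 2 of 18 planar polarity genes, with 3 lower. Over all 11754 genes with that many reads, 1533 were called higher and 1487 lower. A minimum of 100 reads gave the same numbers for the members and the planar polarity genes (2, 2 and 3). That minimum left 1238 genes higher and 1308 lower over the whole table, and a 2-fold threshold left 1333 and 1058. At 2-fold, 0 partner genes were higher and 1 lower, and 2 Hippo genes were higher. With the authors' FPKM 2 Hippo genes were higher, and the cause was not tested. Without chromosome 3, chosen after seeing the data, 2 planar polarity genes were lower. In all, 126 of 141 values stayed within their limits. The limits were wide: a count within 1.5 times the main count, or a log2 fold change inside its counting interval. The interval of DCHS2 has no upper limit, and the passing of 1.5-fold by DCHS1 stayed within its own. The tally is therefore no measure of how firm the calls are. Depth limits FAT2, FAT3, DCHS2 and FJX1, each with at most 14 reads in a library. No paired analysis was possible because a single library stands for each condition.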

Other observations

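Some genes beside FJX1 and DCHS1 were called higher in Akt1/2 DKO, and they were picked after their values were seen. FJX1 has no ratio of its own to set beside its neighbours. CD44, a receptor for hyaluronan and a cell adhesion molecule upstream of FJX1, had 21 reads in control and 542 in Akt1/2 DKO, a log2 fold change of 4.54 (95% counting interval 3.91 to 5.24). LDLRAD3, on the other side of FJX1, had 73 and 220 reads, and TRIM44, the nearest tested gene, had 917 and 869. Near DCHS1, CCKBR, the receptor for gastrin, had 2 and 134 reads, and APBB1, an adaptor of the amyloid precursor protein, had 41 and 208. Between APBB1 and DCHS1, DNHD1 (58 and 192 reads), TRIM3 (176 and 492) and HPX (11 and 22) were also called higher. The counting interval of HPX, from -0.25 to 2.04 in log2 fold change, includes no change. These were 5 of 20 tested genes near DCHS1, against 15.9% called higher over all genes tested. In the same stretch TPP1, TAF10, RRP8, ARFIP2 and TIMM10B were not called. ILK, a kinase of integrin adhesions closer to DCHS1, had 565 and 620.

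For FAT2, the member with the lowest log2 fold change among those tested (-0.36 with a prior count of 1), 1178 of 10950 genes with at least 100 reads lay within 0.1 of its value, LBX2 and SPHK1 at the same value, so no gene stands out as like it.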
